A study of Mus musculus with 38 samples.

Results

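The 10 genes described here carry, split or build on the amino acid arginine: Nos2, Arg1, Arg2, Ass1, Asl, Slc7a1, Slc7a2, Odc1, Srm and Sat1. They were chosen by name as parts of 1 pathway, with earlier results of these data known. Each symbol matched 1 Ensembl identifier among the 55487 genes listed in each of 3 tables of raw read counts. The tables cover 38 poly(A) RNA libraries in 18 groups from mouse: the microglial line BV2, the glioma line GL261, and BMDM, which are primary macrophages that were grown out of bone marrow from WT animals. In the first experiment BV2 and GL261 were each grown alone or together with the other, and BMDM were grown alone or together with GL261, for 16 hours at 21% oxygen (normoxia) or below 0.1% oxygen (hypoxia), at ratios of 2 GL261 to 1 BV2 and 1 GL261 to 1 BMDM. The second experiment had BV2 or BMDM without a partner, given the solvent DMSO at 21% oxygen, DMSO in hypoxia, or panobinostat at 10 nM in hypoxia (a drug that inhibits histone deacetylases); there was no group with panobinostat at 21% oxygen. Each group has 2 libraries, except that the 2 groups of BMDM from co-culture have 3. All cells were fixed with 3% glyoxal before RNA was extracted, BV2 and GL261 are each a single line, and how cells of a co-culture were separated is not given in the sources used here.

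Arginine enters cells through cationic amino acid transporters, of which Slc7a1 (CAT1) is the widespread form and Slc7a2 (CAT2) the form that activated macrophages are known for. Inducible nitric oxide synthase, Nos2, turns arginine and oxygen into nitric oxide and citrulline, and Ass1 followed by Asl can rebuild arginine from that citrulline. The arginases Arg1, in the cytosol, and Arg2, in mitochondria, split arginine into urea and ornithine instead, and the balance of Nos2 against Arg1 is a textbook way to describe the state of mouse macrophages. Ornithine feeds the polyamines: Odc1 makes putrescine, Srm makes spermidine, and Sat1 acetylates spermidine and spermine and so starts their breakdown and export.

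Library totals ran from 9634700 to 27238933 counts, so that 3 counts, used here as the lowest level that can be told from none, stood for between 0.11 and 0.311 CPM. CPM is a count scaled to the library total, which edgeR's TMM factors adjusted for all levels given below. The summed level of 10 myeloid markers was 2839 to 5175 CPM in the 14 BV2 libraries and 6589 to 10273 CPM in the 10 BMDM libraries of the first experiment, and 1.98 to 4.32 CPM in GL261 grown alone. The 6 BMDM libraries of the second experiment went against their label in part: the sum of 5 fibroblast markers (Col1a1, Col1a2, Col3a1, Dcn, Pdgfra) was 2951 to 24231 CPM there, against 68.1 to 580 CPM in the BMDM libraries of the first experiment, with none of the 5 at 0, and the myeloid sum was 717 to 9627 CPM. Among them the library labelled DMSO normoxia replicate 1 stood apart, and so did the library labelled BMDM co-culture normoxia replicate 2 in the first experiment: the sum of 6 neutrophil markers was 14.2 and 18.7 CPM in these, most of it S100a8, and at most 1.89 CPM in the other BMDM libraries, while Ly6g was at 0 in all of them. The sum of 8 glial markers was 1444 to 1923 CPM in GL261. BV2 held 11.7 to 40.2 CPM of it in co-culture and at most 2.09 CPM in other libraries. BMDM held 37.3 to 262 CPM. In the first experiment BMDM monocultures, without GL261, had 163 to 262 CPM and co-cultures 137 to 236 CPM. The fibroblast sum was 687 to 1108 CPM in GL261. In BV2 it was 14.8 to 26.5 CPM in the second experiment and 0.356 to 1.70 CPM in monocultures of the first. The source of that difference was not tested. A set of 4 lymphoid markers summed to at most 0.665 CPM anywhere. Reads of the partner cell made up an estimated 0.207% to 6.38% of the co-culture libraries, highest in BMDM. In bulk RNA a lower level of a gene in all cells and fewer cells that make it cannot be told apart.

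In BV2, 7 of the 10 genes passed the filter on low counts and all 7 changed in hypoxia, both in monoculture and in co-culture (edgeR, adjusted p under 0.05). Nos2, Asl, Slc7a1 and Sat1 rose and Slc7a2, Odc1 and Srm fell. These counts stand against 61.9% of all tested genes called in monoculture and 67.3% in co-culture, so being called is common in this comparison. In GL261, 6 genes passed the filter and 3 were called in hypoxia in monoculture, against 44.6% of all genes, and 3 in co-culture, against 52.4%. All 10 passed in BMDM, where hypoxia changed 3 in monoculture, against 23.9% of all genes, and 4 in co-culture, against 34.8%. Leaving out 1 library changed the monoculture counts: in GL261 to 1 without normoxia replicate 1 or hypoxia replicate 1, and in BMDM to 0 without normoxia replicate 2 and to 1 without any other single one. The median log2 fold change of the genes that passed was 0.38 in BV2 monoculture, 0.03 in GL261 monoculture and 0.57 in BMDM monoculture, beside medians of 0.00, -0.03 and 0.03 over all genes tested.

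**Figure D1:**
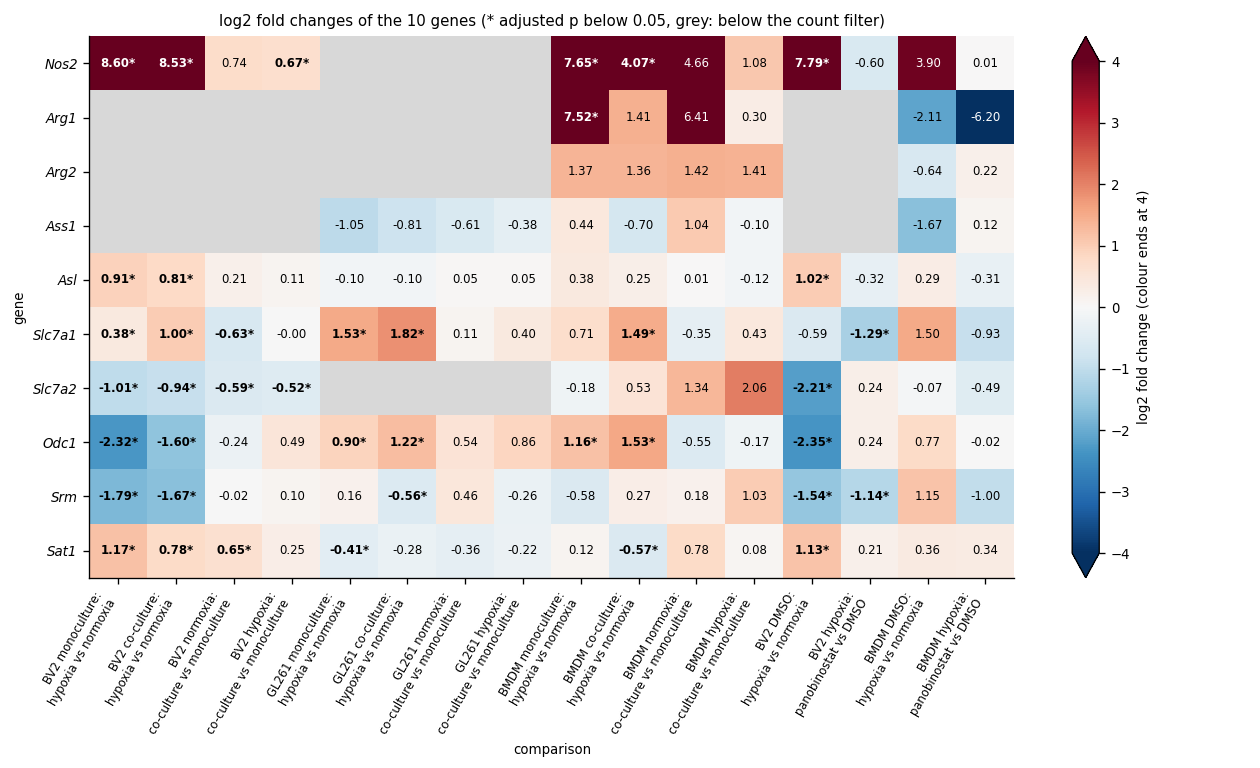
Log2 fold changes (edgeR) of the 10 genes, in rows, in the 16 comparisons of 2 groups, in columns; an asterisk and bold type mark an adjusted p below 0.05, grey marks a gene below the count filter, and the colour scale ends at 4 while the numbers do not. The Nos2 row holds the largest rises, from 7.65 to 8.60 in BV2 and BMDM monocultures under hypoxia, and Odc1 falls in every BV2 hypoxia column and rises in those of GL261 and of BMDM from the first experiment.

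Nos2 (ENSMUSG00000020826, chr11:78920787-78960254, plus strand, GRCm38, 29 exon blocks) was close to the counting floor in BV2 at 21% oxygen and among clearly measured transcripts in hypoxia. In BV2 monoculture it stood at 0.17 and 0.22 CPM in normoxia, from 4 and 5 counts, and at 82.0 and 75.2 CPM in hypoxia. The log2 fold change of 8.60 (SE 0.25, adjusted p 1.71e-12 by edgeR) is the base for what follows. In BV2 from co-culture the values were 0.35 and 0.32 CPM in normoxia and 108 and 143 CPM in hypoxia. Both hypoxic co-culture libraries were above both hypoxic monoculture libraries, a log2 difference of 0.67 (SE 0.13, adjusted p 0.00194). Without the higher of the hypoxic co-culture libraries, replicate 2, that difference was 0.40 and missed the threshold (adjusted p 0.0609). At the estimated partner share, GL261 RNA would add 0.00625 and 0.00717 CPM. In the second experiment, BV2 with DMSO had 0.67 and 0.28 CPM in normoxia and 74.7 and 137 CPM in hypoxia, a log2 fold change of 7.79 (SE 0.70, adjusted p 0.00011).

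Nos2 rose in BMDM too. Monocultures held 0.27 and 0.38 CPM in normoxia, from 5 and 6 counts, and 71.9 and 61.5 CPM in hypoxia, with no overlap and a log2 fold change of 7.65 (SE 1.78, adjusted p 0.0112 by edgeR). The call was lost without normoxia replicate 1 (adjusted p 0.0977) and without normoxia replicate 2 (adjusted p 0.0818), although the fold change stayed between 7.37 and 7.80 there. The lone normoxic library is then assumed to vary like the other groups. In co-culture the levels were 0.62, 23.0 and 0.87 CPM in normoxia and 43.2, 290.2 and 87.9 CPM in hypoxia for replicates 1 to 3. Replicate 2 was the highest library in both groups, and the lowest hypoxic library still stood above it in normoxia. The log2 fold change was 4.07 (SE 1.05, adjusted p 0.0117), 4.51 (adjusted p 0.00147) with the replicate number as a block, 7.60 (adjusted p 0.000432) without normoxia replicate 2, and 2.96 (adjusted p 0.0389) without hypoxia replicate 2. With both libraries numbered 2 left out, a choice made after the values were seen, it was 6.48 (adjusted p 2.06e-05). Between co-culture and monoculture no Nos2 difference passed in BMDM: in normoxia the estimate was 4.66 (SE 1.78, adjusted p 0.29), 1.13 without co-culture replicate 2, and in hypoxia it was 1.08 (SE 1.05, adjusted p 0.578).

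In GL261 Nos2 did not pass the filter with all libraries in the fit. It had 1 and 2 counts in normoxic monoculture, 12 and 3 in hypoxic monoculture, 0 and 0 in normoxic co-culture and 30 and 8 in hypoxic co-culture, the last being 1.89 and 0.45 CPM. When normoxia replicate 1, normoxia replicate 2 or hypoxia replicate 2 of the co-culture was left out, Nos2 passed the filter. The log2 fold changes for hypoxia in co-culture were then 7.47 to 8.16. With 1 library in a group, the filter asks for only 1 library above its cutoff. Hypoxic co-culture replicate 1, at 30 counts, met it. Nos2 thus entered through the group where it was high, so these fits do not test a rise apart from that library. Those fold changes are against libraries at 0 and depend on the fit's prior count. At the level of hypoxic BV2 monoculture, 76.6 CPM, the BV2 RNA expected in the hypoxic co-culture libraries would give 0.194 and 0.159 CPM. That estimate is scaled to plain totals, on which the measured values were 1.78 and 0.444 CPM. BV2 from hypoxic co-culture held more Nos2, 105 and 138 CPM on that scale, so the expected part may be larger. In the joint fit of BV2 and GL261 monocultures the hypoxia effect on Nos2 was larger in BV2 by 6.71 on the log2 scale (SE 1.93, adjusted p 0.0104 by edgeR), a call lost without GL261 normoxia replicate 2 (6.05, adjusted p 0.169). Across the 18 groups, scaled separately for each cell type and experiment, the 8 myeloid groups in hypoxia held mean Nos2 levels between 66.7 and 182 CPM, and their neighbours in that order overlapped. All other groups were lower: 12.1 CPM in BMDM with DMSO in normoxia, 8.16 CPM in normoxic BMDM co-culture, where 1 library carries the mean, 1.17 CPM in hypoxic GL261 co-culture, and at most 0.474 CPM elsewhere.

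**Figure D2:**
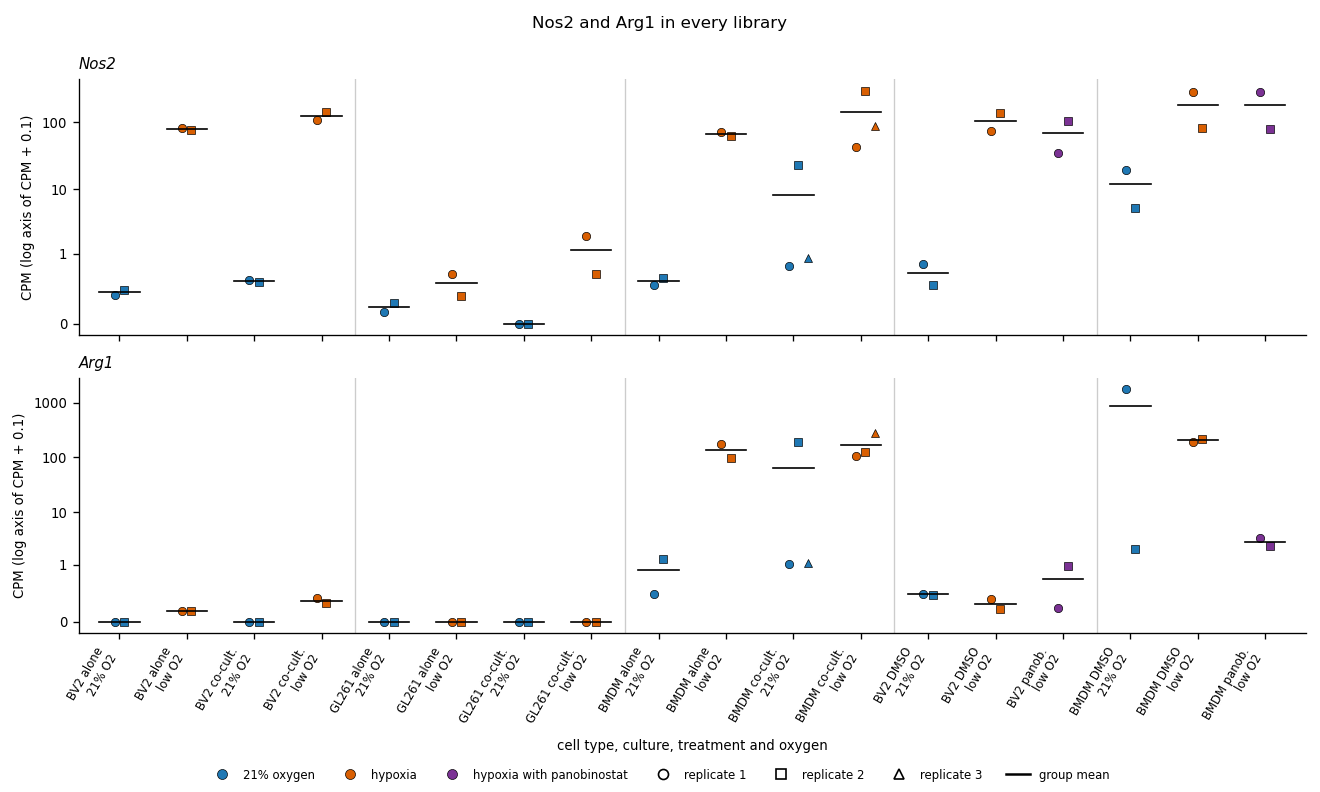
Nos2 and Arg1 in all 38 libraries, in CPM on a log axis of CPM + 0.1 so that libraries at 0 can be drawn; colours give oxygen and drug, marker shapes the replicate, and bars the group mean. Nos2 is high in all hypoxic BV2 and BMDM groups; Arg1 is near 0 in BV2 and GL261, and in BMDM 2 normoxic libraries, at 188 and 1761 CPM, sit with or above the hypoxic ones.

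Arg1 (ENSMUSG00000019987, chr10:24915221-24927484, minus strand, GRCm38, 7 exon blocks) was a transcript of BMDM in these data. It had no count in any of the 8 GL261 libraries and at most 13 counts in a BV2 library, 0.94 CPM in replicate 2 of BV2 with panobinostat, and it passed the filter in neither. In BMDM monoculture it stood at 0.22 and 1.32 CPM in normoxia and at 180 and 97.3 CPM in hypoxia. The groups did not overlap, and the log2 fold change was 7.52 (SE 2.27, adjusted p 0.0344 by edgeR). That call was lost whichever of the 4 monoculture libraries was left out: the adjusted p was 0.196 and 0.136 without normoxia replicates 1 and 2 and 0.0949 and 0.0762 without hypoxia replicates 1 and 2, with fold changes of 6.64 to 9.17. In co-culture the values were 1.05, 188 and 1.06 CPM in normoxia and 106, 128 and 276 CPM in hypoxia. Normoxia replicate 2 exceeded 2 of the 3 hypoxic libraries, so the groups overlapped and the log2 fold change was 1.41 (SE 1.30, adjusted p 0.428). Without that library it was 7.31 (adjusted p 0.000115), and with both libraries numbered 2 left out 7.48 (adjusted p 0.00012). The same library carried the difference between co-culture and monoculture in normoxia, 6.41 (adjusted p 0.219), which was 0.50 without it. In hypoxia the difference was 0.30 (SE 1.43, adjusted p 0.926). It is also the library with 18.4 CPM of S100a8 and 718 CPM of Itgam, a myeloid integrin at 299 and 366 CPM in the other normoxic co-culture libraries. Their part in the Arg1 value was not tested.

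Nos2 and Arg1 were thus both high in hypoxic BMDM monoculture. Per kilobase of exon, which allows levels of different genes to be compared, Arg1 stood at 62.2 CPM per kb and Nos2 at 15.1 CPM per kb there, and at 0.346 and 0.0738 CPM per kb in normoxia. Hypoxic BV2 monoculture had 17.8 CPM per kb of Nos2 and 0.0255 of Arg1. Arg2 (ENSMUSG00000021125, chr12:79130777-79156301, plus strand), the mitochondrial arginase, was low in every library: at most 5.41 CPM, in BMDM with DMSO in normoxia replicate 1, and no more than 4 counts in any BV2 or GL261 library. It passed the filter in BMDM and in the joint fits of BV2 with BMDM, and was called in none of those comparisons. Of its 75-base exon words 17.9% are shared with the opposite-strand genes Vti1b and Gm48780 that overlap its exons, and whether counting used the strand is not given in the sources used here, so its low counts are uncertain.

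Of the 2 enzymes that rebuild arginine from citrulline, Asl was measured in all 3 cell types and Ass1 in BMDM only at an appreciable level. Asl (ENSMUSG00000025533, chr5:130011258-130029247, minus strand), which cleaves argininosuccinate, stood in BV2 monoculture at 44.8 and 42.1 CPM in normoxia and 88.5 and 74.9 CPM in hypoxia. It rose by 0.91 on the log2 scale (SE 0.12, adjusted p 7.74e-06 by edgeR). The rise was 0.81 in co-culture (adjusted p 2.68e-05) and 1.02 with DMSO (adjusted p 0.00319). In GL261 it lay between 13.5 and 18.6 CPM in all 8 libraries, with overlapping groups and a hypoxia effect in monoculture of -0.10 (SE 0.20, adjusted p 0.71). The hypoxia effect was larger in BV2 than in GL261 monoculture by 1.11 (SE 0.22, adjusted p 0.000587). In BMDM monoculture Asl was at 72.6 and 68.6 CPM in normoxia and 92.4 and 91.8 CPM in hypoxia, a difference of 0.38 (SE 0.16) that missed the threshold (adjusted p 0.115).

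Ass1 (ENSMUSG00000076441, chr2:31470207-31520672, plus strand), which joins citrulline to aspartate, had at most 4 counts in any BV2 library. GL261 held 0.19 to 0.87 CPM. In BMDM monoculture it was at 35.3 and 47.2 CPM in normoxia and 54.5 and 56.9 CPM in hypoxia, a log2 difference of 0.44 (SE 0.45, adjusted p 0.527 by edgeR). In co-culture the levels were 43.0, 139 and 71.2 CPM in normoxia, where replicate 2 was again the highest, and 33.3, 53.9 and 68.8 CPM in hypoxia. The difference of -0.70 missed the threshold (adjusted p 0.164), and was -1.03 (adjusted p 0.0355) without normoxia replicate 1. With DMSO, normoxia replicates 1 and 2 stood at 251 and 125 CPM and both hypoxic libraries lower, at 34.8 and 83.5 CPM (log2 difference -1.67, SE 0.62, adjusted p 0.168). The pseudogene Gm5424 holds 32.6% of the 75-base words of Ass1 exons, so part of its reads may have been left out or assigned there. BV2 thus had Nos2 and Asl but next to no Ass1 transcript in hypoxia, whereas BMDM had all 3.

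**Figure D3:**
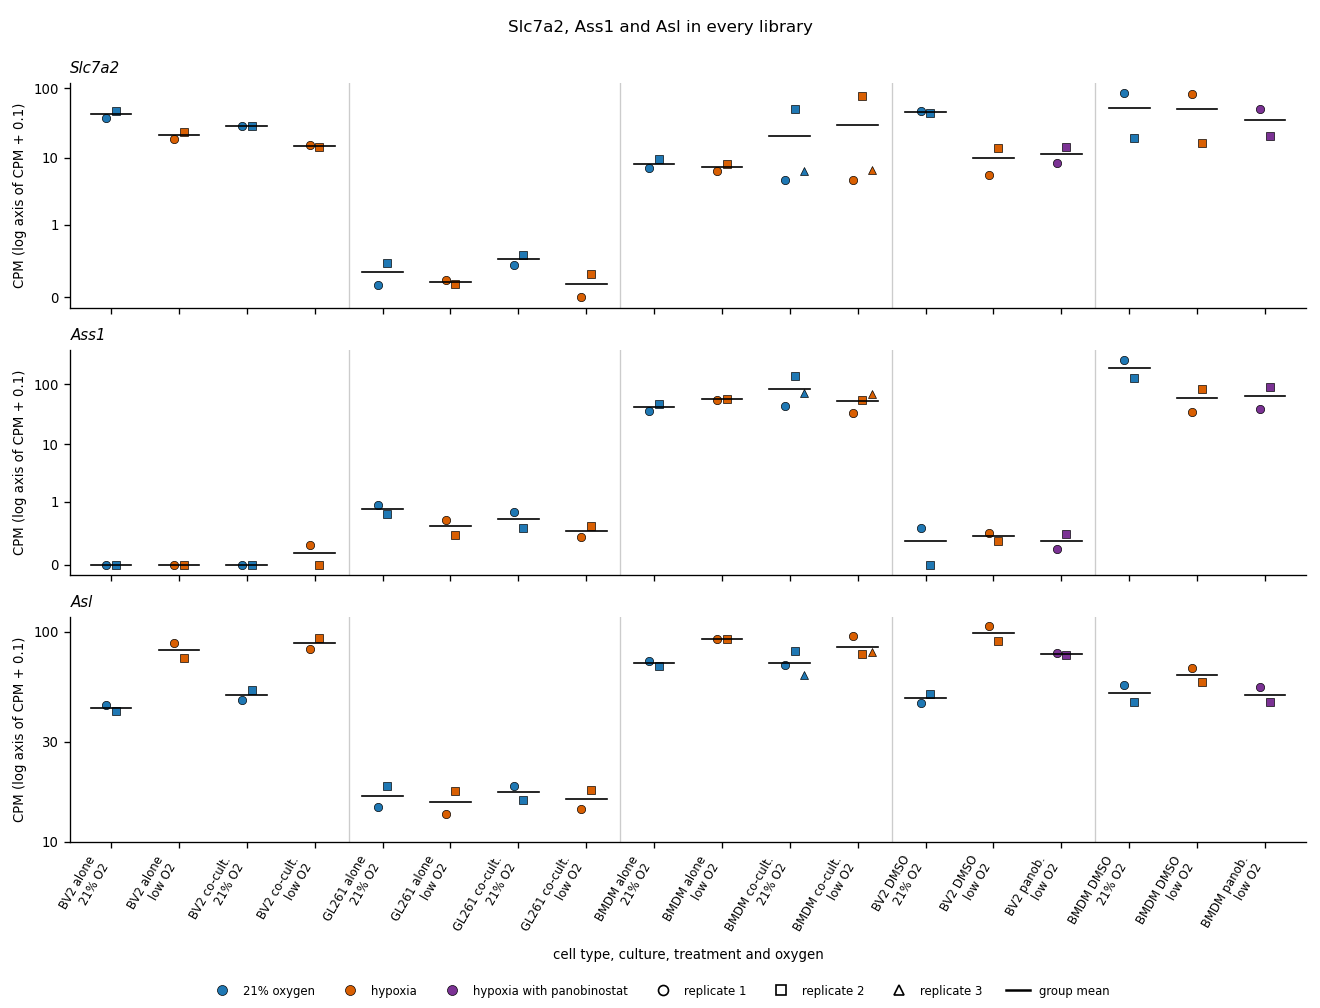
Slc7a2, Ass1 and Asl in all 38 libraries, in CPM on a log axis of CPM + 0.1; colours, shapes and bars give oxygen and drug, replicate and group mean. Ass1 is at or near 0 in BV2, Slc7a2 falls with hypoxia in every BV2 pair of groups, and in BMDM from co-culture replicate 2 (squares) is far above the other Slc7a2 values in both oxygen states.

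The transporters moved differently from each other. Slc7a1 (ENSMUSG00000041313, chr5:148327410-148399904, minus strand) rose in the glioma line. GL261 monocultures held 129 and 155 CPM in normoxia and 475 and 342 CPM in hypoxia (log2 fold change 1.53, SE 0.18, adjusted p 7.51e-05 by edgeR). In GL261 from co-culture the values were 139 and 167 CPM and then 573 and 504 CPM (1.82, SE 0.18, adjusted p 1.46e-05). BV2 monocultures started higher, at 318 and 350 CPM, and reached 388 and 479 CPM, a rise of 0.38 (SE 0.13, adjusted p 0.0216) whose call was lost without normoxia replicate 1 (adjusted p 0.14) or hypoxia replicate 2 (adjusted p 0.214). The hypoxia effect was smaller in BV2 than in GL261, with a difference of -1.05 (SE 0.24, adjusted p 0.00182). BV2 from co-culture began lower in normoxia, at 211 and 220 CPM, a log2 difference from monoculture of -0.63 (SE 0.13, adjusted p 0.00705), and reached 482 and 383 CPM in hypoxia. There the values of the 2 culture types overlapped. The normoxic difference lost its call without monoculture replicate 2 (adjusted p 0.0683) or co-culture replicate 1 (adjusted p 0.057). The difference between the 2 hypoxia effects, 0.62 (SE 0.19), missed the threshold (adjusted p 0.0875). With DMSO, Slc7a1 in BV2 went the other way, from 942 and 480 CPM to 544 and 403 CPM, with overlapping groups (-0.59, SE 0.31, adjusted p 0.166). Without normoxia replicate 2 it was -0.97 (adjusted p 0.0187).

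In BMDM of the first experiment Slc7a1 lay between 25.7 and 125 CPM. Monocultures had 36.2 and 35.5 CPM in normoxia and 53.3 and 64.0 CPM in hypoxia (0.71, SE 0.35, adjusted p 0.168 by edgeR). In co-culture it rose from 25.7, 26.4 and 32.6 CPM to 46.2, 125 and 65.9 CPM, a log2 fold change of 1.49 (SE 0.29, adjusted p 0.00269). It was 0.98 without hypoxia replicate 2 (adjusted p 0.00237). GL261 RNA at the estimated shares would add 6.89, 13.1 and 25.9 CPM in hypoxia, where the values scaled to plain totals were 44.8, 115 and 67.1 CPM. It would add 1.88, 3.25 and 5.44 CPM in normoxia, where they were 27.2, 27.6 and 34.1 CPM.

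Slc7a2 (ENSMUSG00000031596, chr8:40862396-40922308, plus strand) fell in hypoxic BV2, from 38.0 and 47.6 CPM to 19.0 and 23.5 CPM in monoculture (-1.01, SE 0.14, adjusted p 1.31e-05 by edgeR) and from 28.3 and 28.5 CPM to 15.5 and 14.1 CPM in co-culture (-0.94, SE 0.15, adjusted p 4.46e-05). In the second experiment it went from 47.2 and 43.6 CPM to 5.66 and 13.9 CPM (-2.21, SE 0.40, adjusted p 0.00242), and the difference between experiments was not tested. Thus in hypoxic BV2 the CAT2 gene fell in the same libraries in which Nos2 rose. It was also lower in co-culture, with log2 differences of -0.59 in normoxia (adjusted p 0.0116) and -0.52 in hypoxia (adjusted p 0.0285). These 2 calls were fragile: the normoxic one was lost without monoculture replicate 2 (adjusted p 0.163), co-culture replicate 1 (adjusted p 0.0713) or co-culture replicate 2 (adjusted p 0.0536). The hypoxic one was lost without monoculture replicate 2 (adjusted p 0.151), without co-culture replicate 2 (adjusted p 0.102) and when the expected partner reads were subtracted (-0.46, adjusted p 0.07). The expected partner reads held 0.00133 and 0.00152 CPM of Slc7a2 in hypoxic co-culture, beside measured 15.1 and 13.6 CPM, scaled to plain totals. The subtraction was made for all genes, so the scaling of the libraries changed with it. GL261 had at most 5 counts of Slc7a2 in a library.

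In BMDM, Slc7a2 split by library rather than by oxygen. It was at 7.01 and 9.45 CPM in normoxic and 6.47 and 8.01 CPM in hypoxic monoculture. Co-culture libraries held 4.69, 51.0 and 6.46 CPM in normoxia and 4.72, 78.6 and 6.61 CPM in hypoxia, so that both libraries numbered 2 were several-fold above the rest. In the second experiment the 3 libraries numbered 1 held 86.0, 83.3 and 50.6 CPM and the 3 numbered 2 held 19.0, 16.5 and 20.6 CPM. None of the Slc7a2 comparisons in BMDM passed the threshold. Co-culture against monoculture in hypoxia gave 2.06 (SE 1.24, adjusted p 0.346 by edgeR), and -0.35 without co-culture replicate 2. The antisense gene Gm26584 overlaps its exons over 635 bases.

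Among the polyamine enzymes, Odc1 (ENSMUSG00000011179, chr12:17544794-17551505, plus strand), the rate-limiting enzyme of the pathway, fell in hypoxic BV2 and rose in hypoxic GL261 and in hypoxic BMDM of the first experiment. In BV2 monoculture it went from 396 and 379 CPM to 79.6 and 75.2 CPM, a log2 fold change of -2.32 (SE 0.18, adjusted p 1.78e-08 by edgeR). In BV2 co-culture it went from 356 and 302 CPM to 136 and 81.4 CPM (-1.60, SE 0.17, adjusted p 7.25e-07). With DMSO it went from 295 and 433 CPM to 56.8 and 86.2 CPM (-2.35, SE 0.28, adjusted p 0.000412). In none of the 3 did the groups overlap. The hypoxic co-culture libraries were both above the hypoxic monocultures, by 0.49 (SE 0.17), which missed the threshold (adjusted p 0.0712) but passed with the replicate number as a block (0.46, adjusted p 0.0419) and without co-culture replicate 2 (0.75, adjusted p 0.002).

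In GL261 monoculture Odc1 stood at 118 and 94.6 CPM in normoxia and 258 and 139 CPM in hypoxia (0.90, SE 0.29, adjusted p 0.0247 by edgeR). The 2 hypoxic libraries differ widely, and the call was lost without normoxia replicate 1 (adjusted p 0.0561), normoxia replicate 2 (adjusted p 0.126) or hypoxia replicate 1 (0.42, adjusted p 0.239). In GL261 co-culture it went from 170 and 140 CPM to 454 and 267 CPM (1.22, SE 0.29, adjusted p 0.00422). In BMDM monoculture it went from 97.7 and 66.8 CPM to 176 and 192 CPM (1.16, SE 0.31, adjusted p 0.0193), a call lost without normoxia replicate 2 (0.83, adjusted p 0.179), hypoxia replicate 1 (adjusted p 0.0662) or hypoxia replicate 2 (adjusted p 0.103). BMDM co-cultures gave 49.3, 48.2 and 71.7 CPM in normoxia and 202, 106 and 181 CPM in hypoxia, with no overlap (1.53, SE 0.25, adjusted p 0.000983). In BMDM with DMSO it stood at 74.5 and 118 CPM in normoxia and 243 and 84.4 CPM in hypoxia, with overlap (0.77, SE 0.52, adjusted p 0.378), and the estimate was -0.25 without hypoxia replicate 1. Tested directly, the hypoxia effect differed between BV2 and GL261 monocultures by -3.12 on the log2 scale (SE 0.38, adjusted p 5.24e-06), the lines moving in opposite directions. Of the 75-base words of Odc1 exons 16.6% recur in pseudogenes, so its level is uncertain while its direction is the same in every pair of BV2 groups compared across oxygen.

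Srm (ENSMUSG00000006442, chr4:148591503-148594993, plus strand) was the most abundant of the 10 in normoxic BV2, at 648 CPM per kb in monoculture. It fell there from 1107 and 964 CPM to 319.6 and 280.2 CPM (-1.79, SE 0.12, adjusted p 6.07e-09 by edgeR). It fell in co-culture from 1022 and 1024 CPM to 342 and 303 CPM (-1.67, adjusted p 1.06e-08) and with DMSO from 899 and 1127 CPM to 328 and 369 CPM (-1.54, adjusted p 0.00116). In GL261 monoculture it held 131 and 109 CPM in normoxia and 123 and 145 CPM in hypoxia, with overlap (0.16, SE 0.15, adjusted p 0.398). GL261 co-cultures went from 173 and 156 CPM to 119.9 and 104 CPM (-0.56, SE 0.15, adjusted p 0.00753), a call lost without normoxia replicate 1 (adjusted p 0.0758) or hypoxia replicate 2 (adjusted p 0.0802). The hypoxia effect differed between BV2 and GL261 monocultures by -1.85 (SE 0.19, adjusted p 1.01e-06). BMDM held 25.7 to 85.5 CPM over both culture types, and Srm was called there in none of the comparisons. With DMSO its values went up, from 63.4 and 75.2 CPM to 181 and 126 CPM (1.15, SE 0.35, adjusted p 0.124).

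Sat1 (ENSMUSG00000025283, chrX:155213132-155216449, minus strand), on the breakdown side, rose in hypoxic BV2, where Odc1 and Srm fell. BV2 monocultures went from 131 and 117 CPM to 275 and 284 CPM (1.17, SE 0.12, adjusted p 2.79e-07 by edgeR). Co-cultures went from 193 and 196 CPM to 304 and 363 CPM (0.78, SE 0.12, adjusted p 2.06e-05), and cells with DMSO from 93.0 and 82.0 CPM to 191 and 193 CPM (1.13, SE 0.19, adjusted p 0.00204). In normoxia the co-culture itself raised it by 0.65 (SE 0.12, adjusted p 0.00263), a call lost without monoculture replicate 2 (0.56, adjusted p 0.0529). In GL261 monoculture it went the other way, from 56.3 and 44.0 CPM to 35.5 and 39.8 CPM (-0.41, SE 0.15, adjusted p 0.0429), lost without normoxia replicate 1 (adjusted p 0.332) or hypoxia replicate 1 (adjusted p 0.225). The hypoxia effect was higher in BV2 than in GL261 by 1.69 (SE 0.19, adjusted p 2.19e-06). BMDM co-cultures fell from 333, 329 and 290.1 CPM to 247, 164 and 231 CPM (-0.57, SE 0.16, adjusted p 0.0166), while BMDM monocultures lay between 184 and 211 CPM in both oxygen states.

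**Figure D4:**
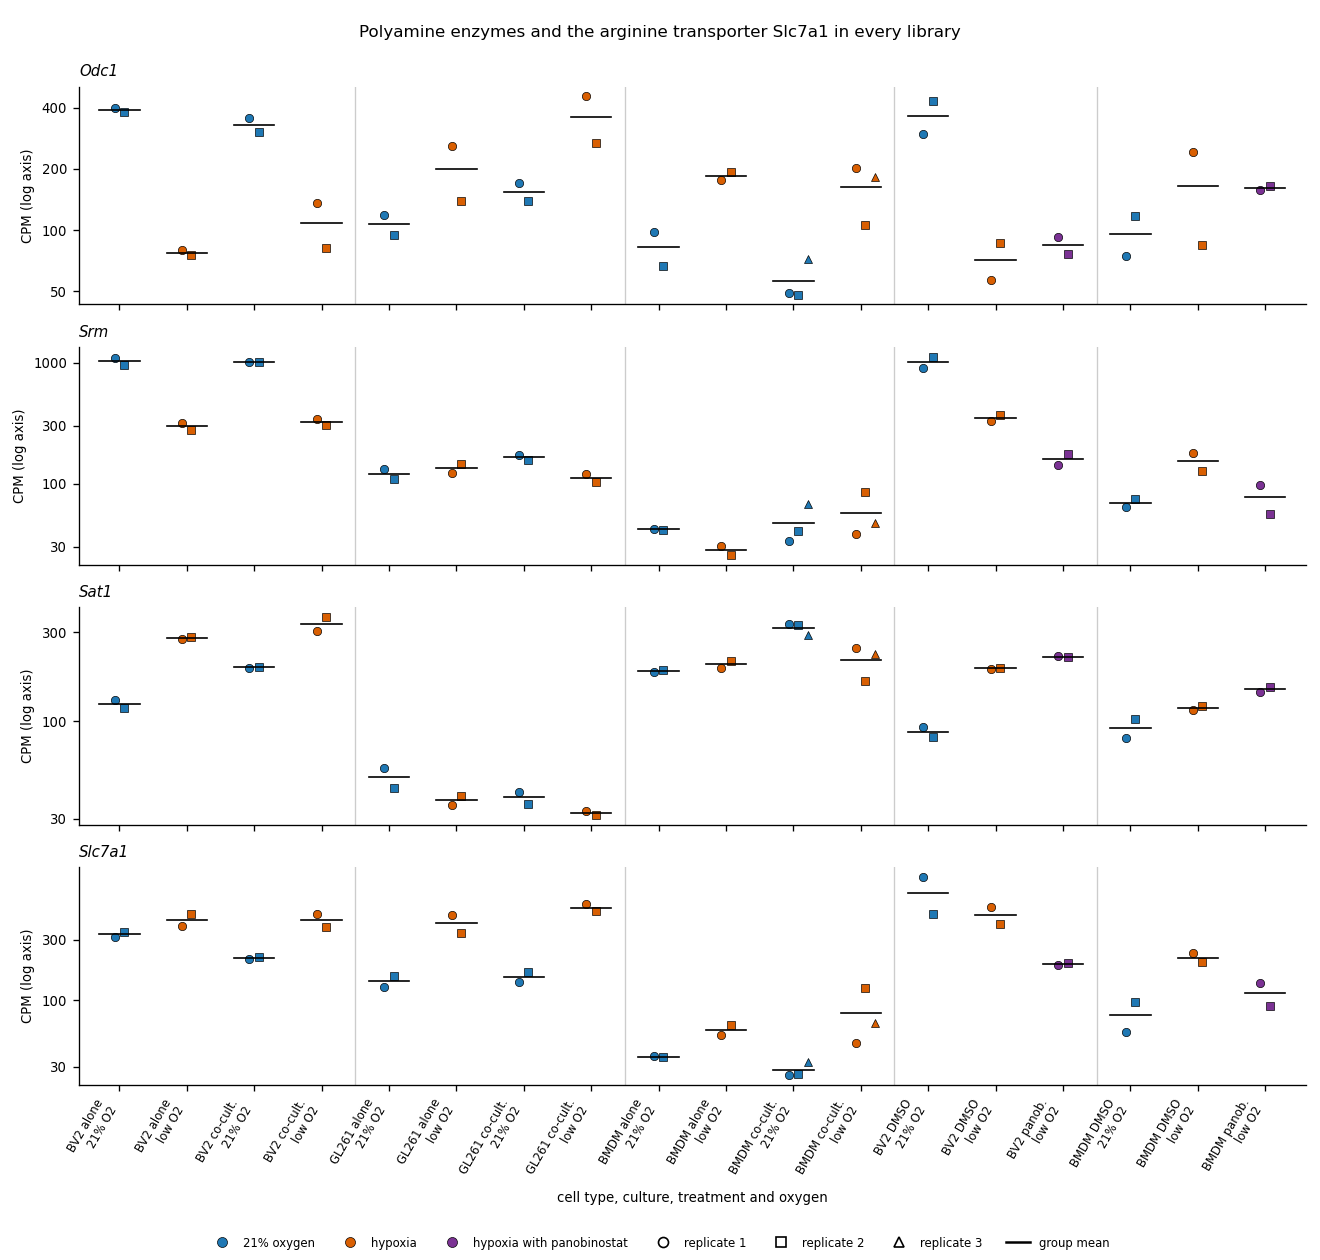
Odc1, Srm, Sat1 and Slc7a1 in all 38 libraries, in CPM on log axes; colours, shapes and bars give oxygen and drug, replicate and group mean. In each BV2 pair of groups Odc1 and Srm are lower and Sat1 higher in hypoxia, while in GL261 Odc1 and Slc7a1 are higher in hypoxia and Sat1 lower.

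Bases before the annotated start, taken from RefSeq on GRCm38, were on hand for Odc1, Slc7a1, Sat1 and Ass1 (4 of the 10). Those inside the gene's own annotated span were removed, and transcripts of other genes were not checked. They are shown because Odc1 and Slc7a1 rose in hypoxic GL261 while Sat1 fell in monoculture. Ass1, also shown, was called in no hypoxia comparison fitted with all libraries. In GL261 co-culture Sat1 was not called (-0.28, adjusted p 0.153 by edgeR). The Odc1 and Sat1 calls in GL261 monoculture were each lost in some fits that left out a library. In hypoxic BV2, by contrast, Odc1 fell and Sat1 rose. Capitals mark ACGTG or GCGTG, the core letters of sites for hypoxia-inducible factors, and a simplified site for NF-kappa B (GGGA, then 4 bases of any kind, then CC), on either strand (CACGC is GCGTG read from the other strand).
Odc1, chr12:17544623-17544793, plus strand: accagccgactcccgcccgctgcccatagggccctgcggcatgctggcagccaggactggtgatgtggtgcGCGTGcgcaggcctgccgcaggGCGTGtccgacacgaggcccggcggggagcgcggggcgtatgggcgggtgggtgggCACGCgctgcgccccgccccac
Slc7a1, chr5:148399905-148400154, minus strand: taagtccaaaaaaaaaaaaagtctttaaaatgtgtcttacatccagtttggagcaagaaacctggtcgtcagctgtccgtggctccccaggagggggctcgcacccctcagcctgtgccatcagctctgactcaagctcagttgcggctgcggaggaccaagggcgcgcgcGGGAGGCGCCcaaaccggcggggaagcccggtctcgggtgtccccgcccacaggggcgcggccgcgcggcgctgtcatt
Sat1, chrX:155216450-155216699, minus strand: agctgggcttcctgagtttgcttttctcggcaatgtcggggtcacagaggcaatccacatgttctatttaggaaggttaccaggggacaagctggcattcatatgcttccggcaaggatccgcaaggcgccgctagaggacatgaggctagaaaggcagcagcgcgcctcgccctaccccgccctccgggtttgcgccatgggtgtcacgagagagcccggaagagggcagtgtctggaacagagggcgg
Ass1, chr2:31470020-31470206, plus strand: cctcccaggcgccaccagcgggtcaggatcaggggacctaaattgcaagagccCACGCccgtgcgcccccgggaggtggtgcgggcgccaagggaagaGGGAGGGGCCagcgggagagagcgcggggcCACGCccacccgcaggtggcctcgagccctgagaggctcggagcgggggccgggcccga
The 171 bases of Odc1 hold 3 matches to GCGTG; 26.7% of all promoter windows of that length hold ACGTG or GCGTG. The 250 bases of Slc7a1 hold 1 match to the NF-kappa B letters, as do 17.6% of windows of that length, and none to ACGTG or GCGTG (38.6% of windows). The 250 bases of Sat1 hold neither. The 187 bases of Ass1 hold 2 matches to GCGTG (29.4% of windows of that length hold ACGTG or GCGTG) and 1 to the NF-kappa B letters (12.8%). Neither CACGTG, which overlaps ACGTG, nor TATAAA was found in any of the 4. These are descriptions of letters in short windows and say nothing of binding.

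Co-culture changed fewer of the genes than hypoxia did. In BV2 it changed 3 of 7 in normoxia (Sat1 up, Slc7a1 and Slc7a2 down), against 14.9% of all genes, and 2 of 7 in hypoxia (Nos2 up, Slc7a2 down), against 15.7%. Without monoculture replicate 2 no normoxic call held, and without co-culture replicate 1 only that of Sat1 did. In hypoxia the Slc7a2 call was lost without monoculture replicate 2. Without co-culture replicate 2 the Nos2 and Slc7a2 calls were both lost, and Odc1, not called with all libraries, passed instead. None of the 6 genes tested in GL261 was called in normoxia or hypoxia (background 0.514% and 1.39%), and DESeq2 also called none. At unadjusted p under 0.05 stood 2 and 2 of them, and 1287 and 2282 of all 15189 genes. The largest GL261 estimate was Odc1 in hypoxia, 0.86 (SE 0.29, adjusted p 0.189 by edgeR), which passed with the replicate number as a block (0.87, adjusted p 0.00903) and without monoculture replicate 1 (1.37, adjusted p 0.0282). In BMDM none of the 10 passed edgeR in normoxia or hypoxia (background 1.64% and 7.11%). There 4 and 1 had an unadjusted p under 0.05, as did 1905 and 3528 of all 14806 genes. DESeq2 called Arg1 (6.35, adjusted p 0.0179) and Sat1 (0.76, adjusted p 0.00215) in normoxia and Srm (1.06, adjusted p 0.0255) in hypoxia. No gene of the 10 passed the edgeR test of whether co-culture altered the hypoxia effect, in BV2 (2.19% of all genes), GL261 (0%) or BMDM (0%). Unadjusted p was under 0.05 for 3, 1 and 2 of them. Over all genes it was so for 2865 of 14432, 1354 of 15189 and 636 of 14806. DESeq2 called Slc7a1 in BV2 (0.61, adjusted p 0.0421). In BV2, Odc1 passed this test without hypoxic co-culture replicate 2 (adjusted p 0.0158), and in BMDM Srm passed the hypoxic comparison without co-culture replicate 1 (1.27, adjusted p 0.0346).

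In the panobinostat experiment BV2 again changed with hypoxia, in 6 of 7 genes against 37.5% of all genes, the exception being Slc7a1. Panobinostat lowered 2 of the 7 in hypoxic BV2, against 14.6% of all genes called and 7.39% called lower: Slc7a1 from 544 and 403 CPM to 191 and 197 CPM (-1.29, SE 0.32, adjusted p 0.0265 by edgeR), and Srm from 328 and 369 CPM to 142 and 175 CPM (-1.14, SE 0.23, adjusted p 0.0138). Leaving out a library ended the Slc7a1 call for DMSO replicate 1 (adjusted p 0.0754), panobinostat replicate 1 (adjusted p 0.166) and panobinostat replicate 2 (adjusted p 0.128), and the Srm call for panobinostat replicate 1 (adjusted p 0.196) and replicate 2 (adjusted p 0.0823). Nos2 stood at 35.03 and 104 CPM with panobinostat beside 74.7 and 137 CPM with DMSO, lower for each replicate number while the groups overlapped (-0.60, SE 0.45, adjusted p 0.397; -0.72, adjusted p 0.0171, with the replicate number as a block). Odc1, Sat1, Asl and Slc7a2 had estimates between -0.32 and 0.24. The myeloid marker sum was 3406 and 2839 CPM with the drug beside 4959 and 3959 CPM with DMSO, and its part in these values was not tested. The hypoxia and panobinostat comparisons share their hypoxic DMSO libraries.

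In BMDM of that experiment no gene of the 10 was called by edgeR, for hypoxia (background 0.483%) or for panobinostat (0%). There unadjusted p was under 0.05 for 4 and 3 of them, and for 3786 and 3868 of all 14914 genes. DESeq2 called 3 and 1 of the 10, and over all genes it also called far more than edgeR did. Arg1 was at 1761 and 2.08 CPM in normoxia, 192 and 218 CPM in hypoxia and 3.23 and 2.32 CPM in hypoxia with panobinostat. The drug groups did not overlap: the log2 difference was -6.20 (SE 2.44, adjusted p 0.181 by edgeR; DESeq2 -6.19, adjusted p 0.035), and it lay between -6.45 and -5.98 with any 1 of the 4 libraries left out, with no call. The hypoxia difference of Arg1 was -2.11 (adjusted p 0.526), and 6.56 (adjusted p 0.229) without normoxia replicate 1, so its sign rested on that library. Nos2 rose from 19.0 and 5.17 CPM to 279 and 81.0 CPM under DESeq2 (3.90, adjusted p 0.000394) and with the replicate number as a block in edgeR (3.92, adjusted p 0.00832). It missed the threshold in edgeR without it (3.90, SE 1.02, adjusted p 0.103). Panobinostat left it at 284 and 78.8 CPM, an estimate of 0.01 (SE 0.90). DESeq2 also called Slc7a1 (1.49, adjusted p 0.0067) and Srm (1.14, adjusted p 0.0491) for hypoxia.

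**Figure D5:**
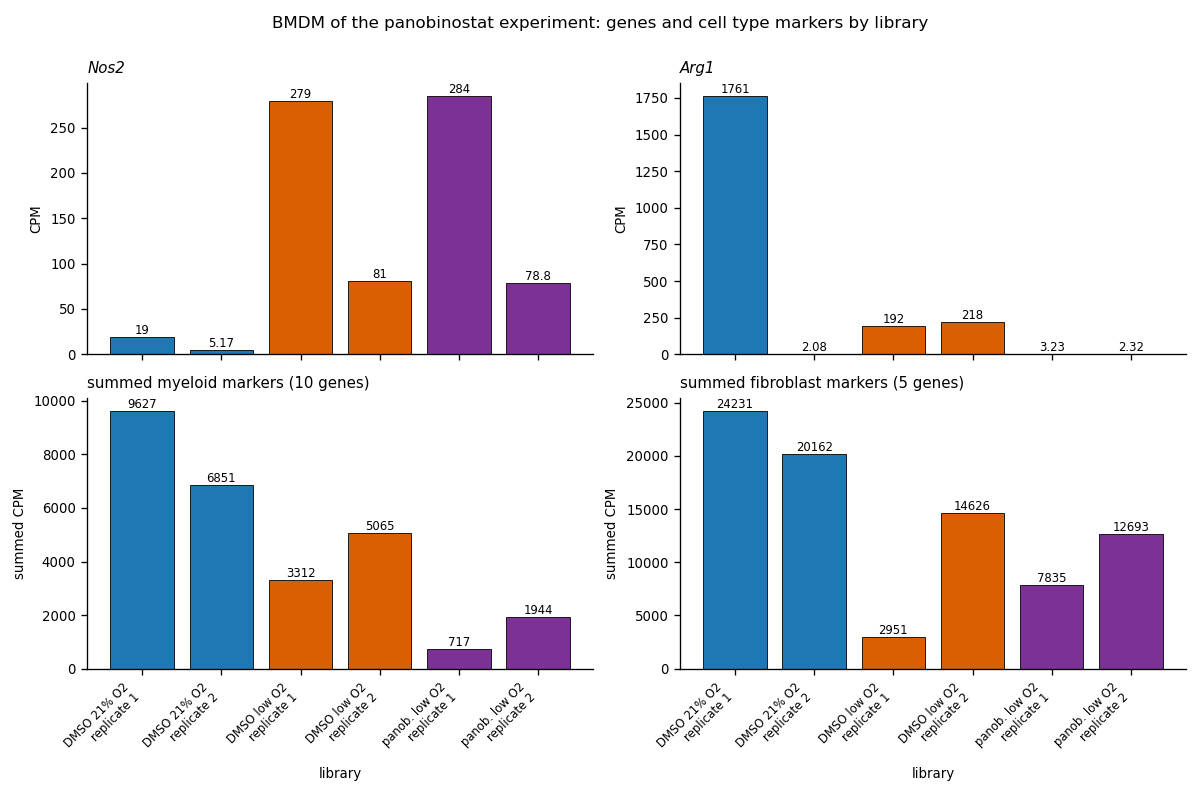
Nos2, Arg1 and the summed levels of 10 myeloid and 5 fibroblast markers in the 6 BMDM libraries of the panobinostat experiment, in CPM on linear axes from 0. Arg1 is at 192 and 218 CPM in hypoxia and at 3.23 and 2.32 CPM with panobinostat, where the myeloid sum is also lowest, while Nos2 holds similar values by replicate number in both.

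Cell type markers moved with these BMDM groups. The myeloid sum was 9627 and 6851 CPM in normoxia, 3312 and 5065 CPM in hypoxia and 717 and 1944 CPM with panobinostat, and all 10 markers were detected in every one of them. Csf1r, the receptor for the macrophage growth factor, was at 2980 and 2610, then 1270 and 1963, then 117 and 655 CPM. The fibroblast sum was 24231 and 20162, then 2951 and 14626, then 7835 and 12693 CPM. The part of these shifts in the Arg1, Nos2, Ass1 and Slc7a2 values was not tested. In the joint fit of both cell types with DMSO, Srm was the 1 gene called different in its hypoxia effect by edgeR (BV2 minus BMDM -2.62, SE 0.44, adjusted p 0.0401 by edgeR), 1 of 10 against 0.664% of all genes. Unadjusted p was under 0.05 for 6 of the 10, and for 2974 of all 15955 genes. Odc1 was among the 6 (-3.05, SE 0.65, adjusted p 0.0601 by edgeR). DESeq2 called 5 (Srm, Odc1, Nos2, Slc7a1 and Sat1). With the replicate number as a block edgeR called 2, Odc1 beside the Srm already called without it. That call was lost in 7 of the 8 fits that left out a library, with differences of -2.77 to -2.32 and adjusted p of 0.0606 to 0.184, and held in the fit without BMDM DMSO hypoxia replicate 2 (-2.88, adjusted p 0.00955). None of the 10 differed in its panobinostat effect (0.0251% of all genes), and DESeq2 called none. For 1 of them unadjusted p was under 0.05, as it was for 1793 of all 15955 genes. In the joint fit of BV2 and GL261 monocultures 6 of the 8 genes tested differed in their hypoxia effect, against 37.4% of all genes, where the median difference over all genes was 0.15.

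Beyond the 10, 61 genes in 4 lists were followed: transport and other uses of arginine (20), the remaining nitric oxide synthases with their cofactor and receptor (12), the rest of the polyamine pathway (23) and proline synthesis and breakdown (6, of which 5 were found). Polyamine genes were more often called lower than higher in hypoxic BV2 and GL261 monocultures. In BV2 12 of 20 tested fell and 3 rose (median -0.67, beside 0.00 over all genes, of which 31% were called lower and 30.9% higher). In GL261 8 of 22 fell and 0 rose (median -0.26, beside 21.4% and 23.2% of all genes). In BMDM monoculture 4 of 21 fell and 2 rose, small counts beside 10.6% and 13.3% of all genes (median -0.36). In BMDM with DMSO 0 of 21 were called, against 0.483% of all genes. The salvage enzymes Mtap and Enoph1, which recycle the by-product of Srm back toward methionine, fell in all 3 monocultures. Mtap went from 104 and 84.7 CPM to 17.8 and 18.3 CPM in BV2 (-2.39, adjusted p 4.29e-10 by edgeR), from 80.7 and 86.1 CPM to 33.7 and 37.1 CPM in GL261 (-1.24, adjusted p 6.03e-05) and from 26.9 and 26.5 CPM to 12.9 and 10.8 CPM in BMDM (-1.17, adjusted p 0.00728). Enoph1 changed by -1.58, -0.56 and -0.87. Spermine oxidase, Smox, which breaks spermine down directly, went from 13.2 and 11.8 CPM to 123 and 124 CPM in BV2 monoculture (3.30, adjusted p 1.44e-10), by 3.08 in co-culture and by 3.04 with DMSO. Panobinostat raised it from 143 and 150.5 CPM to 263 and 263 CPM (0.84, adjusted p 0.0191). In GL261 monoculture it did not pass (-0.11, SE 0.15, adjusted p 0.584), and in BMDM monoculture it rose by 1.67 (adjusted p 0.00225). Azin2, a relative of Odc1 that shields it from degradation, rose in BV2 with DMSO (2.05, adjusted p 0.00128).

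In the nitric oxide list 2 genes rose and 3 fell of 10 in BV2 monoculture, 1 rose and 3 fell of 10 in GL261, and 2 rose and 0 fell of 9 in BMDM (medians -0.09, -0.33 and 0.11). Over all genes 30.9% were called higher and 31% lower in BV2, 23.2% and 21.4% in GL261, and 13.3% and 10.6% in BMDM. Gch1, the first enzyme of the cofactor tetrahydrobiopterin that nitric oxide synthases need, rose in all 3: from 12.9 and 11.2 CPM to 20.8 and 21.8 CPM in BV2 (0.82, adjusted p 0.000113 by edgeR), from 0.87 and 0.75 CPM to 3.13 and 2.46 CPM in GL261 (1.79, adjusted p 0.00481) and from 19.5 and 22.1 CPM to 38.0 and 39.9 CPM in BMDM (0.91, adjusted p 0.0082). Nos1, the neuronal synthase, went from 23.0 and 24.2 CPM to 170 and 197 CPM in BV2 monoculture (2.96, adjusted p 2.99e-10), and from 1.15 and 1.26 CPM to 6.33 and 5.25 CPM in BMDM monoculture (2.26, adjusted p 0.00128). Its hypoxia effect was higher in BV2 than in GL261 by 3.54 (adjusted p 3.95e-08). With panobinostat it fell in BV2 from 163 and 116 CPM to 67.1 and 59.97 CPM (-1.14, adjusted p 0.0225). Nos3 was at most 1.60 CPM in every library. Its change in BMDM co-culture (2.53, adjusted p 0.041) rests on 0 to 0.185 CPM in normoxia. Gchfr, the feedback regulator of Gch1, rose with panobinostat in BV2 from 2.36 and 5.01 CPM to 38.5 and 29.1 CPM (3.19, adjusted p 0.00196).

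Of the transport list, 5 rose and 4 fell of 15 in BV2 monoculture, 6 rose and 5 fell of 15 in GL261, and 2 rose and 1 fell of 14 in BMDM (medians -0.17, 0.20 and -0.01). Of all genes 61.9%, 44.6% and 23.9% were called in either direction in these comparisons. Slc3a2, the heavy chain that several amino acid carriers need, rose in all 3 monocultures (0.66, 1.44 and 1.13), as did the cytosolic arginine sensor Castor1 (1.19, 0.93 and 1.05), and the light chain Slc7a6 fell in all 3 (-1.11, -0.49 and -1.78). Gamt, the last enzyme of creatine synthesis, fell in GL261 from 46.0 and 34.9 CPM to 6.03 and 6.37 CPM (-2.71, adjusted p 1.96e-06 by edgeR). Gatm, the enzyme before it, was called higher in BV2 from co-culture by 4.41 in normoxia and 5.87 in hypoxia, from at most 0.085 CPM in monoculture to 0.907 to 2.23 CPM. GL261 reads at the estimated share would give 1.28 and 0.762 CPM in normoxia and 1.73 and 1.99 CPM in hypoxia. In the proline list 2 of 4 rose and 1 fell in BV2, 3 rose and 2 fell of 5 in GL261, and 0 rose and 2 fell of 5 in BMDM (medians 0.49, 0.59 and -0.69). Pycr1, which makes proline, rose in BV2 co-culture (2.25, adjusted p 5.7e-07), GL261 monoculture (1.35, adjusted p 0.000261) and BMDM co-culture (2.12, adjusted p 0.00599). In BMDM monoculture it was not called higher. The part of GL261 reads in the BMDM co-culture value was not tested.

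Likeness of pattern was measured as the smallest Pearson correlation of log2 CPM over the libraries of each table, among 11946 genes. The libraries share their oxygen groups and cell types, so the values describe and do not test. The 5 genes most like Nos2 over the 3 tables (16, 10 and 12 libraries) were Ndufv3, a subunit linked to mitochondrial complex I, Fam219a, Khnyn, Dubr and the haem oxygenase Hmox1, with smallest correlations of 0.93, 0.92, 0.92, 0.92 and 0.91. For Arg1, over the BMDM and panobinostat tables (10 and 12 libraries), they were Cuedc1, Lrmda, the mitochondrial iron carrier Slc25a37, the glycolytic regulator Pfkfb3 and Dpep3, from 0.88 to 0.85.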

How the data were processed

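Poly(A) RNA was sequenced as stranded libraries (KAPA kit, paired reads on a NovaSeq, per the labels' protocols). The authors deposited whole-number read counts per Ensembl gene in 3 tables: BV2 with GL261, BMDM, and the panobinostat experiment. Per the submitters' processing notes, the build was mm10 and the tools included Trimmomatic 0.36, STAR 2.6, HTSeq 0.9.1, SAMtools, deepTools and, for some samples, Picard 2.17.1; settings, annotation and use of strand are not given in the sources used here. Coordinates come from a GRCm38 annotation, which is the same assembly as mm10. All columns matched a label and were used.

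BV2, GL261 and BMDM of the first experiment and both cell types of the second were fitted separately with edgeR 4.0.16 in R 4.3.3 (filterByExpr with a minimum count of 10 and total of 15, TMM, quasi-likelihood test, Benjamini-Hochberg adjustment over all genes tested, threshold 0.05). Differences between cell types were tested in joint fits, within a table only. Alternatives were DESeq2 1.42.0, its size factors in edgeR, no filter beyond 1 count, the replicate number as a block, each library left out, and subtraction of the partner's RNA, whose share was estimated from genes at 20 CPM or more in the partner and 100 times higher there than in the cell itself. Chosen after the data were seen were a fit of the 6 BMDM co-culture libraries alone with the block and fits without the 2 numbered 2. Shared sequence is the share of 75-base exon words that recur in other genes. Scripts were tested on simulated data.

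The labels state biological replicates for the BV2 and GL261 samples of the first experiment but not for the rest, so p-values measure the spread between these samples, which may be technical. Replicates of the 22 pairs compared differed by more than counting noise (chi-square per degree of freedom 6.70 to 155.5), and none were identical. In the BMDM co-cultures same-numbered deviations in normoxia and hypoxia correlated at 0.244 to 0.455 over 3 pairs. The labels do not say that replicate numbers pair libraries, so the main tests used no block. All 10 genes could be named in every comparison they entered, and those not described there were not called by edgeR; other pathway genes were named where they were among the 3 largest called changes of their list and at least 4-fold, or moved one way past the threshold in all 3 monocultures, and genes of like pattern by rank. A pathway gene that met this rule is not reported here. The members, gene lists and marker lists were chosen with earlier results of these data known. Counting intervals and floors cover counting error only.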

Additional observations from a re-analysis of the deposited data

Results flagged for a closer look

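The hypoxia effect differed between BV2 and GL261 monocultures for 6 of the 8 genes tested, by a test of the difference of log2 fold changes in 1 joint edgeR fit (37.4% of all genes passed it). BV2 minus GL261 was 6.71 for Nos2, which 2 GL261 libraries hold at 1 and 2 counts, and 1.11 for Asl, 1.69 for Sat1, -1.05 for Slc7a1, -3.12 for Odc1 and -1.85 for Srm. Odc1 and Sat1 moved in opposite directions in the lines, in all 4 libraries of each.

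With DMSO, BV2 minus BMDM was -2.62 for Srm, again tested in a joint fit; the BMDM libraries of that experiment hold high levels of fibroblast markers, whose part in this difference was not tested. Odc1 went down in BV2 monoculture (-2.32) and up in BMDM monoculture (1.16), with every hypoxic library below the normoxic ones in BV2 and above them in BMDM. Those monocultures are in separate tables, and this difference was not tested. The DMSO libraries of both cells, in 1 table, gave a BV2 minus BMDM difference of -3.05 for Odc1 (SE 0.65, edgeR adjusted p 0.0601), called in 1 of 8 fits that left out a library.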

How the results depend on the processing

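Of 1762 member results recomputed under an alternative, 120 changed sign without being called and 0 calls reversed. DESeq2 kept 153 of 168, gained 13 calls and lost 2. Its size factors kept 177 of 177. No filter kept 145 of 177, gained 31 and lost 1. The replicate block kept 171 of 177 and gained 6. Partner subtraction kept 45 of 46 and lost 1. Single libraries left out kept 924 of 972, gained 8 and lost 40. Counts of members called changed as follows, the cause not tested. Calls over all genes also changed, most in the second BMDM experiment, as given below. With DESeq2 they were 1 (from 0) for the BV2 difference of hypoxia effects, 1 (from 3) for GL261 monoculture, 2 and 1 (from 0) for BMDM co-culture in normoxia and hypoxia, 3 and 1 (from 0) for BMDM hypoxia with DMSO and panobinostat, and 5 (from 1) for BV2 against BMDM. With no filter they were 1 (from 0) for the BV2 difference and for GL261 co-culture in hypoxia, 5 (from 3) and 7 (from 4) for BMDM hypoxia in monoculture and co-culture, 5, 3 and 3 (from 0) for BMDM co-culture in normoxia, in hypoxia and their difference, 5 and 2 (from 0) for BMDM DMSO and panobinostat, and 5 (from 1) and 1 (from 0) for BV2 against BMDM. Partner subtraction left 1 of 2 in hypoxic BV2 co-culture, and leaving out both libraries numbered 2, chosen after the data were seen, gave 1 (from 0) in normoxic BMDM co-culture.

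With the replicate number as a block the counts were 1 (from 0) for GL261 co-culture in hypoxia, 2 (from 0) for BMDM hypoxia with DMSO and 2 (from 1) for BV2 against BMDM. Outside the BMDM co-cultures the groups share only 2 numbers. Correlations there were -0.0807 to 0.175 in BV2 and 0.0433 to 0.369 in GL261. In the second experiment they were 0.154 to 0.389 in BV2 and 0.336 to 0.593 in BMDM. The labels state no pairing, so it is not established there or in the BMDM co-cultures.

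With 1 library left out the counts ranged from 0 to 3 (BV2 co-culture, normoxia), 1 to 2 (hypoxia), 0 to 1 (their difference), 1 to 3 (GL261 monoculture), 0 to 1 (GL261 co-culture, hypoxia), 0 to 1 (BMDM monoculture), 0 to 1 (BMDM co-culture, hypoxia), 0 to 2 (BV2 panobinostat) and 0 to 2 (BV2 against BMDM with DMSO).

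Over all genes, calls changed by more than 1.5 times most in the second BMDM experiment: hypoxia gave 72 calls in edgeR, 2260 in DESeq2, 3259 with no filter and 2127 with the block, and panobinostat 0, 2221, 2867 and 2044, with 66 under DESeq2 size factors. BV2 panobinostat went from 1941 to 4025 with the block, and BMDM monoculture hypoxia from 3542 to between 1288 and 1567 with a library left out. Partner subtraction lowered co-culture calls from 2152 to 1252 and 2266 to 1480 in BV2, 78 to 12 in normoxic GL261, and 243 to 30 and 1053 to 156 in BMDM. Depth limits Nos2 in GL261 (at most 30 counts in a library), Arg1 in BV2 (at most 13) and Arg2 in BV2 and GL261 (at most 4), against a floor of 3 counts.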
